A study of Homo sapiens with 12 samples.

Results

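The NIMA-related kinases (NEK family) were followed here through their 8 members NEK1, NEK2, NEK3, NEK4, NEK6, NEK7, NEK8 and NEK9 in the human line Kasumi-1, grown from an acute myeloid leukaemia with the t(8;21) translocation. The members were taken by gene name, 8 of the 27411 genes in the expression table. Their m6A peaks were taken by assigned gene identifier, 10 of the 35851 peaks listed for shWTAP cells and 14 of the 35341 listed for control cells. The family was selected on the input values of NEK7, which were strongly lower after the knockdown, so the input values of NEK7 are given as a description with no test.

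One group of cells carried a short hairpin RNA (shRNA) against WTAP, the adaptor that holds the m6A (N6-methyladenosine) methyltransferase of mRNA in nuclear speckles, and the control group carried a scrambled shRNA. All cells were labelled wild type in genotype. All were selected with puromycin at 2 µg/ml, begun 48 h after transfection of the shRNA and kept for at least 24 h. Both groups thus received the drug and an shRNA, though not the same shRNA. The series holds 12 libraries in 4 groups of 3, m6A immunoprecipitates (IP) and inputs of shWTAP and of control cells, and every value comes from a single cell line. Expression is given in the 6 input libraries as FPKM, a level per length (fragments scaled to transcript length and to the library's total).

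NEK kinases are serine/threonine kinases related to NIMA, a mitotic kinase of Aspergillus. In dividing cells NEK9 is activated at mitotic entry and in turn activates NEK6 and NEK7, which act on spindle microtubules, while NEK2 loosens the linker that holds the duplicated centrosomes together. NEK1, NEK4 and NEK8 have been tied to primary cilia and to the response to DNA damage, and NEK3 to prolactin receptor signalling. NEK7 has a further role in myeloid cells, where it binds the sensor NLRP3 and is needed for assembly of the NLRP3 inflammasome, which activates caspase-1.

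The sequences that carried an m6A peak near a NEK transcription start are shown for NEK9, NEK6 and NEK8. The NEK9 start region was covered alike in both peak lists, and those of NEK6 and NEK8 in the control list. They are from RefSeq on GRCh38.p14, which gave start windows for 7 of the 8 members (12 windows), and are written 5' to 3' on the strand of the gene. Capitals mark bases inside a peak block. The first is the 250 bases upstream of the RefSeq start of NEK9 (chr14:75127049-75127298, minus strand). Of these, 48 bases lay in blocks of a peak found in both lists. The others are stretches of 30 transcribed bases, all of them inside a peak block, which begin at the first transcribed base of a RefSeq start or, for the first NEK6 stretch, 20 bases after it. The NEK9 stretch (chr14:75127019-75127048, minus strand) lay in the same shared peak. Both NEK6 stretches (chr9:124291984-124292013 and chr9:124292420-124292449, plus strand) lay in a peak listed in control cells and not in shWTAP cells. The NEK8 stretch (chr17:28728788-28728817, plus strand) lay in a control peak that met an shWTAP peak at 1 base only. In the expression table NEK9 reaches to chr14:75127344, so the 250 bases upstream of its RefSeq start lie inside the listed gene and may be transcribed. The RefSeq starts of NEK6 and NEK8 used here also lie inside their listed genes.
NEK9 upstream: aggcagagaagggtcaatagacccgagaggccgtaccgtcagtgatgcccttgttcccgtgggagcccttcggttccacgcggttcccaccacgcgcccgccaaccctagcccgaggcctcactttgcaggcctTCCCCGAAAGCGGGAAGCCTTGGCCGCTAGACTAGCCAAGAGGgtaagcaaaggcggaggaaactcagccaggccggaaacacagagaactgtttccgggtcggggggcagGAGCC
NEK9 start, transcribed bases: ACCATCGAGCTTCGCGGGGTTGCTGGGCTG
NEK6 first start, transcribed bases: CCAGAGAGGCGACCCAGCTCCCTGGAGGCC
NEK6 second start, transcribed bases: TTTTGTCTGCCCCTTCCTGCCTGTGGGAAG
NEK8 start, transcribed bases: ACGGAAGTGAAACTCTAAGAAATGAGATGG

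The letters GGACT, a common core of the m6A consensus, were searched on both strands of the windows that touched a peak block. On the strand of the gene they occurred in none of the 4 windows of NEK6, NEK8 and NEK9, and they occurred on the other strand in both NEK6 windows (2 matches and 1 match). Of all 35116 RefSeq start windows, 25.3% held GGACT on the gene's strand and 44.2% on either strand. A missing match says only that these letters are not in these windows.

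The knockdown was read first in the targeted gene. WTAP stood at 6.97, 6.48 and 5.69 FPKM in shWTAP libraries 1, 2 and 3, against 11.5, 11.2 and 11.7 FPKM in control libraries 1, 2 and 3. The shWTAP libraries thus kept 55.6% of the control level (log2 change -0.76, SE 0.08, limma adjusted p = 0.00663). Libraries shWTAP 1 and control 3 stood apart in the share of mitochondrially encoded mRNA, 0.631% and 0.634% against 0.300% to 0.333% in the other 4 libraries. Member values within that pair and among the other 4 are therefore given beside the results they touch. All 7 of the fixed markers of myeloblasts and Kasumi-1 were at 1 FPKM or more in every library, with summed levels of 2453 to 2501 FPKM in shWTAP and 2241 to 2294 FPKM in control. The 3 T cell markers summed to 50.4 to 61.6 FPKM in shWTAP and 50.2 to 52.8 FPKM in control, where CD3D was the 1 gene at 1 FPKM or more in every library. The 3 epithelial markers summed to 38.8 to 50.7 FPKM in shWTAP and 41.2 to 43.1 FPKM in control, where EPCAM was the 1 such gene. The 2 listed B cell markers summed to 2.40 to 3.15 FPKM in shWTAP and 2.06 to 2.46 FPKM in control, and the 3 stromal markers to 0.341 to 0.549 FPKM in shWTAP and 0.112 to 0.137 FPKM in control. No marker of these lists was at 0 in every library, and their part in the results was not tested. In bulk RNA, fewer cells of a type and less RNA per cell cannot be told apart.

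NEK7 was the member with the large difference. Its mRNA (chr1:198156994-198322420, plus strand) stood at 4.24, 2.98 and 3.05 FPKM in shWTAP libraries 1, 2 and 3, against 10.1, 9.52 and 11.5 FPKM in control libraries 1, 2 and 3. The groups lay far apart, with the highest shWTAP library, shWTAP 1, below every control. The means were 3.42 ± 0.710 FPKM in shWTAP and 10.4 ± 1.03 FPKM in control (SD, n = 3 each), so the shWTAP level was 32.9% of the control level. On the log2(FPKM + 1) scale, which understates changes of low genes, the difference was -1.37 (SE 0.12). That was the 18th lowest value among 11383 tested genes, and these are the values by which the family was chosen. In shWTAP 1 against control 3, the pair with the high mitochondrial share, the difference was -1.26, and in the other 4 libraries it was -1.43. No other listed gene overlaps NEK7 by position.

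NEK9 and NEK6, which form the mitotic module with NEK7, had differences that did not pass the test. NEK9 (chr14:75079353-75127344, minus strand), the upstream kinase, stood at 8.87, 8.85 and 8.98 FPKM in shWTAP libraries 1, 2 and 3, against 7.62, 8.23 and 8.11 FPKM in the controls. The shWTAP libraries were all above the controls, but the log2 difference of 0.14 (SE 0.06, 95% interval -0.00 to 0.29) did not pass the test (limma adjusted p = 0.224). It was 0.12 in shWTAP 1 against control 3 and 0.15 in the other 4 libraries. NEK6 (chr9:124257606-124353307, plus strand), the closest relative of NEK7, stood at 8.82, 7.99 and 6.97 FPKM in shWTAP libraries, against 8.95, 9.28 and 9.00 FPKM in the controls. Every shWTAP value was below every control value, narrowly so for shWTAP 1, and the log2 difference of -0.18 (SE 0.09, 95% interval -0.38 to 0.02) did not pass (limma adjusted p = 0.256). Without shWTAP 1 the NEK6 difference was -0.25 and passed (limma adjusted p = 0.0449, with 0.0449 to 0.612 over all alternatives). That setting called 2751 of all 11383 tested genes, against 443 with all 6 libraries. Without both high mitochondrial libraries NEK6 did not pass (limma adjusted p = 0.0541). The NEK6 difference was -0.03 in the high mitochondrial pair and -0.26 in the other 4 libraries. The level of NEK7 relative to NEK6 was 0.431 ± 0.054 in shWTAP (0.374 to 0.481) and 1.15 ± 0.129 in control (1.03 to 1.28; SD, n = 3 each).

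**Figure D1:**
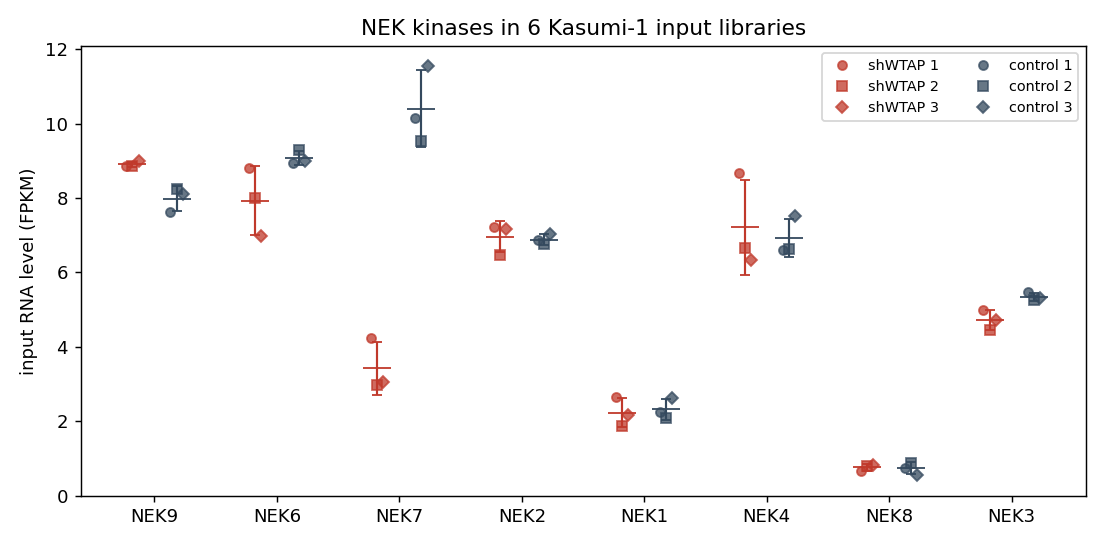
Input level in FPKM of the 8 NEK genes, with each library as a point, shWTAP left of control, the horizontal line at the mean and the bar giving the SD (n = 3). The NEK7 points lie at 2.98 to 4.24 FPKM in shWTAP and 9.52 to 11.5 FPKM in control and do not overlap, unlike the points of NEK1, NEK2, NEK4 and NEK8.

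NEK2, the centrosome kinase (chr1:211658657-211675630, minus strand), stood at 7.23, 6.47 and 7.17 FPKM in shWTAP libraries, against 6.86, 6.76 and 7.03 FPKM in the controls. The ranges overlapped, and the log2 difference was 0.01 (SE 0.07, 95% interval -0.15 to 0.17, limma adjusted p = 0.932). Its sign turned when shWTAP 1 or shWTAP 3 was left out (-0.01 in both cases), and it was 0.035 in the high mitochondrial pair and 0.00041 in the other 4 libraries.

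The members tied to cilia and DNA damage had no called difference either. NEK1 (chr4:169392809-169612627, minus strand) stood at 2.66, 1.87 and 2.18 FPKM in shWTAP libraries, against 2.24, 2.10 and 2.64 FPKM in the controls (log2 difference -0.04, SE 0.11, 95% interval -0.31 to 0.22, limma adjusted p = 0.847). NEK4 (chr3:52708444-52770946, minus strand) stood at 8.67, 6.65 and 6.32 FPKM in shWTAP libraries, against 6.62, 6.63 and 7.51 FPKM in the controls (log2 difference 0.04, SE 0.12, 95% interval -0.23 to 0.31, limma adjusted p = 0.850). The groups overlapped for both genes, and shWTAP 1 was the highest shWTAP library for both. In the high mitochondrial pair and in the other 4 libraries the difference had opposite signs, at 0.18 and -0.03 for NEK4 and at 0.0083 and -0.07 for NEK1. NEK4 shares 2705 bp with SPCS1, a signal peptidase subunit on the opposite strand, which stood at 8.17 ± 0.597 FPKM in shWTAP and 10.0 ± 0.345 FPKM in control (log2 difference -0.27, limma adjusted p = 0.0858). Whether fragments were counted by strand is not given in the sources used here, so reads of NEK4 and SPCS1 may be mixed over that stretch.

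NEK8 (chr17:28725897-28743455, plus strand), a ciliary kinase mutated in nephronophthisis, was the lowest member, at 0.662, 0.806 and 0.824 FPKM in shWTAP libraries, against 0.745, 0.886 and 0.567 FPKM in the controls. It was under the filter of 1 FPKM in at least 3 libraries and was not tested. NEK8 overlaps TLCD1 on the opposite strand, which was at 3.37 ± 0.233 FPKM in shWTAP and 3.66 ± 0.419 FPKM in control. NEK3 (chr13:52132639-52159861, minus strand) stood at 5.00, 4.45 and 4.73 FPKM in shWTAP libraries, against 5.47, 5.25 and 5.30 FPKM in the controls. The NEK3 groups did not overlap, and the log2 difference of -0.15 (SE 0.07, 95% interval -0.31 to 0.01) did not pass (limma adjusted p = 0.235). It was -0.07 in the high mitochondrial pair and -0.19 in the other 4 libraries.

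Of the 6 tested members other than NEK7, limma called 0 at an adjusted p under 0.05, and 0 had an unadjusted p under 0.05. Among all tested genes, 443 of 11383 were called, or 3.89%. For 3 of the 6, NEK3, NEK6 and NEK9, the groups did not overlap, against 28.2% of all tested genes. The intervals of the 6 together span log2 differences of -0.38 to 0.31. NEK5, NEK10 and NEK11, listed in the table and no part of the chosen set, were at 1.17 FPKM or less in every library. Of these NEK11 was the highest, at 0.926, 0.736 and 0.693 FPKM in shWTAP libraries, against 1.07, 1.02 and 1.17 FPKM in the controls. It passed the filter only through the controls (log2 difference -0.23, SE 0.09, limma adjusted p = 0.188), and it overlaps other listed genes on the opposite strand.

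**Figure D2:**
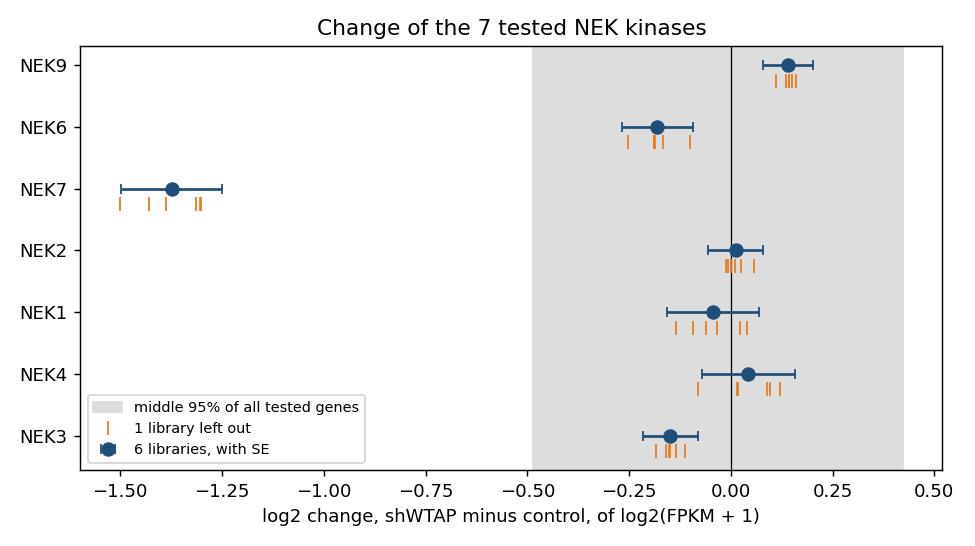
Log2 change of the 7 tested members, shWTAP minus control, with its SE (circles) and the values with 1 library left out (orange ticks), over the middle 95% of all tested genes (grey, -0.49 to 0.42). NEK7 lies between -1.50 and -1.30 in the fits without 1 library, and the other 6 members lie inside the grey band.

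The members were ordered by level in each group. In shWTAP cells the mean levels ran NEK9, NEK6, NEK4, NEK2, NEK3, NEK7, NEK1 and NEK8 from high to low, and the ranges of NEK6 and NEK4, and of NEK4 and NEK2, overlapped. In control cells they ran NEK7, NEK6, NEK9, NEK4, NEK2, NEK3, NEK1 and NEK8, and only NEK4 and NEK2 overlapped among neighbours. NEK7 was thus 6th in shWTAP and 1st in control. The 8 members summed to 42.1 ± 3.46 FPKM in shWTAP and 49.7 ± 1.76 FPKM in control (SD, n = 3 each). Without NEK7 the sums were 38.7 ± 2.75 FPKM (37.1 to 41.9) in shWTAP and 39.3 ± 0.835 FPKM (38.5 to 40.2) in control, which overlapped. NEK7 made up 9.20%, 7.45% and 7.57% of the family sum in shWTAP libraries, against 20.8%, 19.6% and 22.3% in the controls.

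The genes whose input profile over the 6 libraries lay nearest to that of NEK7 were BECN1, LRRC59, MYDGF, PHACTR4 and PCNP, by Euclidean distance between mean-centred log2(FPKM + 1) values. BECN1, a core protein of autophagy, was nearest (distance 0.420 log2 units). It stood at 4.07 ± 0.411 FPKM in shWTAP and 9.73 ± 0.213 FPKM in control, a log2 difference of -1.09. LRRC59, a ribosome-binding membrane protein (distance 0.501), stood at 37.6 ± 5.52 FPKM in shWTAP and 75.6 ± 0.470 FPKM in control. PCNP, a nuclear protein rich in PEST sequence (distance 0.533), stood at 25.7 ± 4.07 FPKM in shWTAP and 49.9 ± 3.47 FPKM in control. MYDGF and PHACTR4 differed by -1.66 and -1.02 on the log2 scale. These genes were picked for being like NEK7, so their differences carry no test, and the likeness rests on 6 shared libraries.

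The m6A peaks are the authors' regions of IP over input, 1 list per condition, and each fold enrichment is the authors' value with no replicate. It describes a peak within its own list, and a change of m6A at a site was not tested. NEK7 carried a single peak in each list, annotated as 3' UTR, which ended 2517 bases before the end of the gene in shWTAP and 2547 bases before it in control. The shWTAP peak (chr1:198319723-198319903) had a fold enrichment of 2.00 and the control peak (chr1:198319694-198319873) one of 2.25. The peaks shared 151 bp, or 83.9% of the shorter one. Both were weak within their lists, at percentiles 8.75 and 12.2 of fold enrichment, where the list medians were 6.75 for shWTAP and 6.77 for control. The log10 of the false discovery rate was -5.23 in shWTAP and -21.2 in control. A NEK7 peak was thus listed in both conditions.

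NEK9 carried the strongest NEK peaks inside their own gene. Its 5' UTR peak, over the sequence printed above, had fold enrichments of 22.5 in shWTAP (chr14:75124078-75127164) and 21.0 in control (chr14:75124168-75127164), percentiles 92.0 and 90.7. In both lists this peak also touched AL049780, a listed gene on the opposite strand. The 3' UTR peak of NEK9 had 9.06 in shWTAP (chr14:75084118-75085039) and 10.1 in control (chr14:75084118-75085009). A peak in exon 21 of 22 had 2.69 in shWTAP (chr14:75087032-75087212) and 7.90 in control (chr14:75086792-75087212), where the control peak was also the longer one. For this peak the log10 of the false discovery rate was -20.9 in shWTAP and -18.5 in control. Further peaks assigned to NEK9 lay wholly or partly outside its span, over TMED10 and AL049780, with 1.93 in shWTAP and 1.64 and 7.90 in control. The last had no counterpart and a false discovery rate of 0.204, above 0.05.

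NEK6 was marked mainly in its 3' UTR. The larger 3' UTR peak had a fold enrichment of 4.56 in shWTAP (chr9:124351510-124352349) and 6.16 in control (chr9:124351450-124352469), and a smaller one beside it had 1.64 and 1.66. A 5' UTR peak (chr9:124291984-124292525, fold enrichment 2.26), which begins in the first NEK6 stretch printed above, was listed in control with no overlap in shWTAP.

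**Figure D3:**
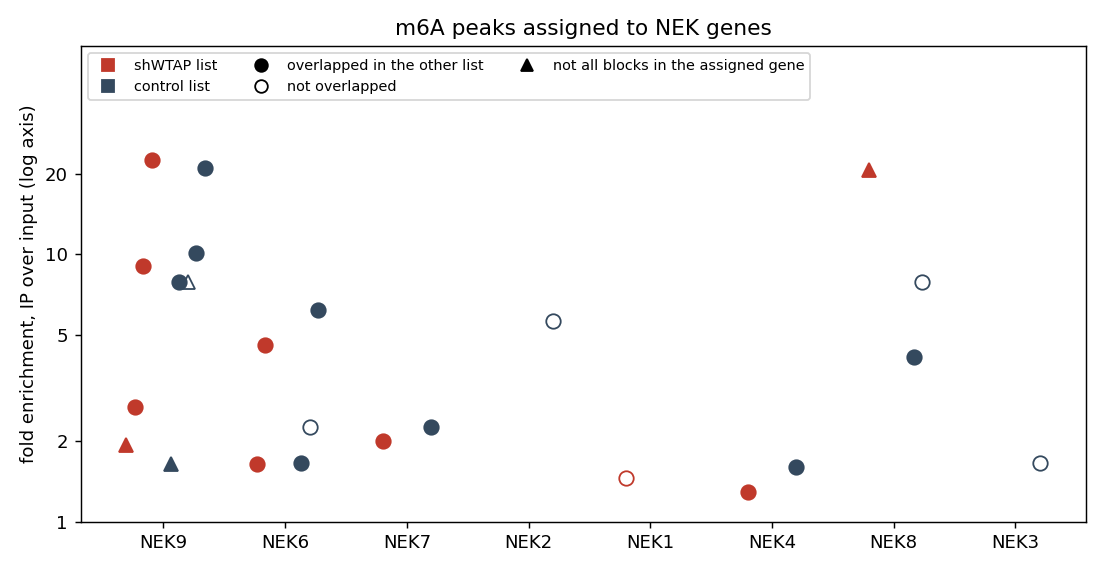
Fold enrichment of IP over input (log axis) of each peak assigned to a NEK gene, in shWTAP (red, left) and control (dark, right), filled where the other list holds an overlapping peak and as a triangle where not all blocks lie in the assigned gene. NEK7 has 1 peak at 2.00 in shWTAP and 1 at 2.25 in control, and the NEK9 5' UTR peak reaches 22.5 and 21.0.

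The remaining members had few or weak peaks. NEK4 had a peak in exon 7 of 16 in both lists, with 1.29 in shWTAP (chr3:52752185-52752274) and 1.60 in control (chr3:52752185-52752304). NEK1 had a peak in exon 17 of 36 in shWTAP only (chr4:169556006-169556066, fold enrichment 1.46), with a log10 false discovery rate of -0.93, which is above 0.05. NEK2 had a control-only peak annotated as 3' UTR (chr1:211667010-211667070, fold enrichment 5.64), although it lay near the middle of the gene span, and NEK3 a control-only 3' UTR peak (chr13:52132758-52133027, fold enrichment 1.65).

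NEK8 peaks need care because of its neighbours. The shWTAP peak assigned to it (chr17:28724348-28725904, fold enrichment 20.6) lay over TLCD1 and RPL23A and reached only the first bases of NEK8. The control peak (chr17:28725897-28728860, fold enrichment 4.14) was annotated as 5' UTR, touched TLCD1 as well, and ends just past the NEK8 stretch printed above. Peaks assigned to TLCD1 also lay in the NEK8 span near its start, with 6.75 in shWTAP and 3.38 in control. A second control peak in exon 6 of 15 (chr17:28737682-28738126, fold enrichment 7.90) also touched AC010761. It had no counterpart and a false discovery rate of 0.204, above 0.05.

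**Figure D4:**
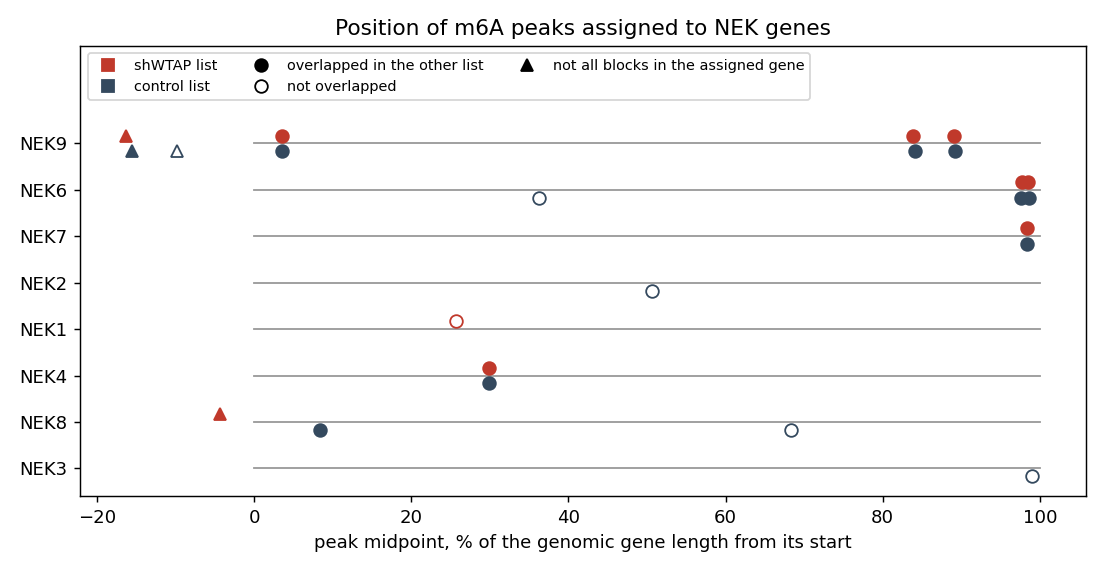
Midpoint of each NEK peak as a percentage of the genomic length of its gene, counted from the gene's start, with shWTAP (red) above control (dark) for each gene and marks as in the plot of fold enrichment. The NEK7 peaks and the paired NEK6 peaks lie at the 3' end, and triangles left of 0 lie outside NEK9 or NEK8.

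Of the 10 shWTAP peaks on 6 members, 9 were overlapped by at least 1 bp in the control list, against 82.8% of all shWTAP peaks. Of the 14 control peaks on 7 members, 9 were overlapped in the shWTAP list, against 82.6% of all control peaks. The 5 control peaks with no overlap belonged to NEK2, NEK3, NEK6, NEK8 and NEK9, and the 1 such shWTAP peak belonged to NEK1. The NEK8 and NEK9 peaks among these 5, and the NEK1 peak, had a false discovery rate above 0.05. Leaving out such peaks, 9 of 9 shWTAP and 9 of 12 control peaks were overlapped in the other list. The share of all peaks overlapped after that filter was not computed, so these counts have no background. An assigned peak in both lists was found for 5 of the 8 members, NEK4, NEK6, NEK7, NEK8 and NEK9, against 49.6% of all listed genes and 72.8% of all tested genes. A stricter demand was that at least 50% of the shorter peak be shared and that the peak lie inside its gene. Under it, NEK4, NEK6, NEK7 and NEK9 had a peak in both lists. The share of all genes under this demand was not computed.

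The genes with which NEK kinases work were followed in 6 lists, of which 76 genes were tested. limma called 2 of them, both lower in shWTAP, while 2.42% of all tested genes were called lower and 1.48% higher. The called genes were NEDD1 and BRCC3. The list of the NEK9, NEK6 and NEK7 mitotic module had 12 tested genes, of which 0 rose, 1 fell and 11 did not pass, with a median log2 difference of -0.03, against -0.03 over all tested genes. NEDD1 (chr12:96907224-96953780), which brings gamma-tubulin to the spindle and is a substrate of NEK9, stood at 5.32, 4.12 and 4.26 FPKM in shWTAP libraries, against 8.25, 8.71 and 9.68 FPKM in the controls. The groups did not overlap, and NEDD1 fell by 0.83 on the log2 scale (SE 0.10, limma adjusted p = 0.0113), to 51.4% of the control mean. The difference was -0.76 in the high mitochondrial pair and -0.87 in the other 4 libraries. The call was lost without control 2 (limma adjusted p = 0.0545), control 3 (0.0556) or shWTAP 3 (0.0635).

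The NLRP3 inflammasome list had 9 tested genes of 16, of which 0 rose, 1 fell and 8 did not pass, with a median of -0.05. NLRP3 itself was at 0.658 ± 0.195 FPKM in shWTAP and 0.518 ± 0.040 FPKM in control and was not tested, and CASP1 and IL1B, the caspase and a cytokine it matures, were at 0.183 FPKM or less in every library. BRCC3 (chrX:155071420-155123074), a deubiquitinase that acts on NLRP3, stood at 10.5, 8.94 and 9.71 FPKM in shWTAP libraries, against 12.6, 12.5 and 14.2 FPKM in the controls. BRCC3 fell by 0.40 (SE 0.08, limma adjusted p = 0.0493), close to the threshold, and kept its call in 6 of 15 alternatives. Leaving out any control, shWTAP 2 or shWTAP 3 ended the call (limma adjusted p of 0.0511 to 0.177 over the alternatives that lost it).

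In the other 4 lists limma called 0 of 60 tested genes with all 6 libraries, against 3.89% of all tested genes. With the high mitochondrial pair (shWTAP 1 and control 3) as a block, 11 of the 60 were called (3 higher, 8 lower). The count was 14 without shWTAP 1 (2 higher, 12 lower), 16 without both libraries (5 higher, 11 lower) and 0 without control 3 alone. In the same order these settings called 1938, 2751, 3142 and 61 of all 11383 tested genes, against 443 with all 6 libraries. Of the 8 genes named below, all but CCNB1 passed with that block (limma adjusted p of 0.0134 to 0.0463), and CCNB1 passed without both libraries (0.0366). The centrosome linker and spindle checkpoint list around NEK2 had 20 tested genes (median -0.03), the nearest to the threshold being PPP1CC, a catalytic subunit of protein phosphatase 1, at 50.8 ± 0.765 FPKM in shWTAP and 42.4 ± 2.63 FPKM in control (limma adjusted p = 0.0741). NDC80, of the outer kinetochore, stood at 9.25 ± 0.537 FPKM in shWTAP and 11.3 ± 0.706 FPKM in control (limma adjusted p = 0.0955). The cilia and nephronophthisis list had 9 tested genes of 15 (median 0.07). Among them KIF3A, a kinesin of ciliary transport, stood at 0.868 ± 0.221 FPKM in shWTAP and 1.48 ± 0.196 FPKM in control (limma adjusted p = 0.0896). KIF3A was at 0.706 and 0.777 FPKM in shWTAP 2 and shWTAP 3, so it passed the filter only with the controls, where it was higher. INVS, a ciliary protein that recruits NEK8, stood at 3.06 ± 0.258 FPKM in shWTAP and 3.74 ± 0.248 FPKM in control (limma adjusted p = 0.150).

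The DNA damage list had 13 tested genes (median -0.03), with the smallest adjusted p for the checkpoint kinase CHEK2, at 5.37 ± 0.790 FPKM in shWTAP and 7.00 ± 0.664 FPKM in control (limma adjusted p = 0.123). XRCC5, the larger Ku subunit, stood at 39.2 ± 5.69 FPKM in shWTAP and 48.1 ± 2.35 FPKM in control (limma adjusted p = 0.145). The list of G2 and mitosis genes had 20 tested genes (median -0.02). BIRC5, of the chromosomal passenger complex, was at 30.1 ± 1.77 FPKM in shWTAP and 25.4 ± 1.66 FPKM in control (limma adjusted p = 0.120), and cyclin B1 (CCNB1) at 34.9 ± 1.06 FPKM in shWTAP and 30.5 ± 1.69 FPKM in control (limma adjusted p = 0.151).

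**Figure D5:**
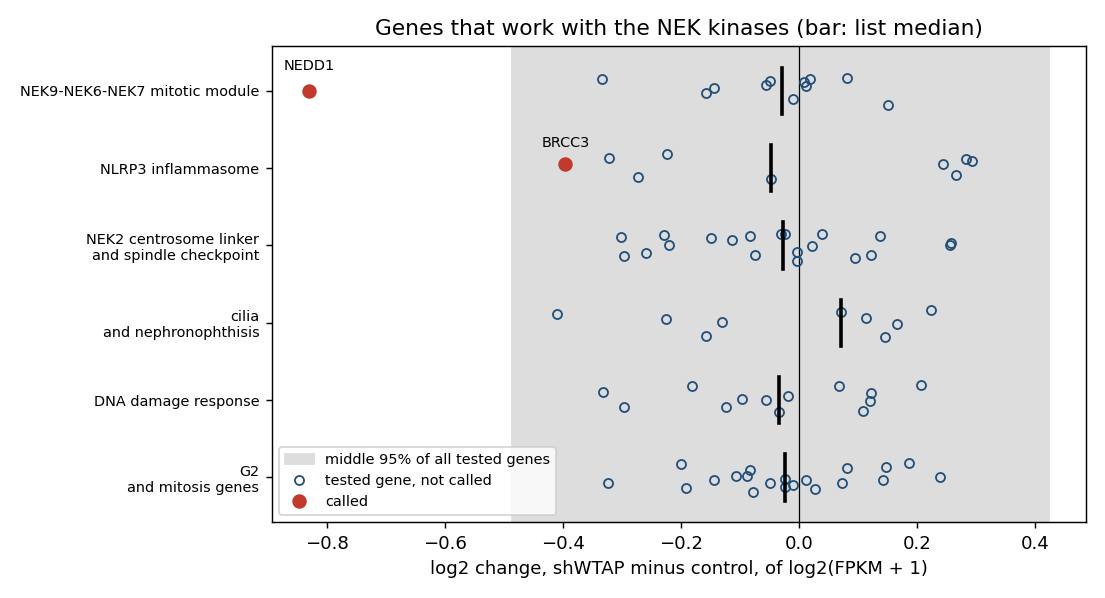
Log2 change, shWTAP minus control, of each tested gene of the 6 lists, with the list median as a bar, called genes filled and the middle 95% of all tested genes in grey. NEDD1 at -0.83 and BRCC3 at -0.40 are the called genes.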

How the data were processed

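Kasumi-1 input and IP libraries were grouped by their titles, 3 biological replicates each. The authors deposited FPKM per gene for the 6 input libraries and 1 peak list per condition, with a fold enrichment (ratio of IP over input), a p-value, and log10 p and log10 false discovery rate given as scores, per the file headers. Tools named in the submitters' processing notes are HISAT2, fastp, ChIPseeker and HOMER, without versions. The sources used here do not give the peak caller, the pooling of replicates, the FPKM program or whether counting used strand, although the labels' protocols describe a dUTP kit that marks strand. The labels call the shRNA delivery a transfection. Sequencing depth is unknown, because low FPKM values did not fall on whole-read steps. IP values per gene were not analysed here.

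The genome build is not given in the sources used here. On the chromosome given, 99.9% of 20181 gene symbols overlapped the GRCh38.p14 RefSeq gene, and 91.7% had a start or end within 100 bp, as did all 8 members, so coordinates were read as GRCh38. They are printed 1-based.

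limma 3.58.1 (R 4.3.3; lmFit, eBayes with trend) tested log2(FPKM + 1), shWTAP minus control, for 11383 genes at 1 FPKM or more in at least 3 libraries, with Benjamini-Hochberg adjustment over all of them and calls under 0.05. The script was tested on simulated data. An exact permutation test of 3 against 3 cannot go below 0.1. Peaks were overlapped by block with bedtools 2.31.1 (at least 1 bp, strand ignored).

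The members and gene lists were chosen with earlier results of these data known. Named are all members, NEK5, NEK10, NEK11, WTAP, genes overlapping a member, the 5 nearest profiles to NEK7, and per list every called gene, otherwise the 2 smallest adjusted p. NLRP3, CASP1, IL1B and the neighbours of peaks were named outside that rule. Alternatives were another pseudocount, filters, normalization, blocks, no trend, each library left out, and stricter peak overlap or thresholds.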

Additional observations from a re-analysis of the deposited data

How the results depend on the processing

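The count of 443 called genes (168 higher, 275 lower) became 82 with no filter on low values, 672 under quantile normalization (327 higher, 345 lower), 662 under median centring (323 higher, 339 lower), and 1938 with the high mitochondrial share as a block. Without both libraries of that share it was 3142, an alternative chosen after seeing the data, and leaving out 1 library gave 46 to 2751. The lowest count came without shWTAP 3 and the highest without shWTAP 1. Called members other than NEK7 numbered 0 to 1 with 1 library left out, the 1 being NEK6 without shWTAP 1, and 0 in the other alternatives. NEK7 stood at -1.50 to -1.30 with 1 library left out and at -1.59 with a pseudocount of 0.1. The log2 difference changed sign when a library was left out for NEK1 (range -0.14 to 0.040), NEK2 (range -0.013 to 0.056) and NEK4 (range -0.080 to 0.12). For NEK4 it was -0.027 without both high mitochondrial libraries, and none of these passed the test. The 2 called partner genes became 1 with a pseudocount of 0.1 or without the trend, 0 with no filter, 5 under quantile normalization, 4 under median centring, 18 with the mitochondrial block and 24 without both libraries, and 0 to 21 with 1 library left out. NEDD1 lost its call with no filter (limma adjusted p = 0.0591). The replicate block gave 77 called genes and 0 called partner genes, with limma adjusted p = 0.0506 for NEDD1. Deviations of same-numbered libraries from their group means correlated at -0.11, 0.17 and -0.14, and the largest value of any pair was 0.31, for shWTAP 1 and control 3. With 3 libraries a group, these values cannot settle whether same-numbered libraries shared a day or batch. Of the 24 NEK peaks, 18 overlapped the other list, 17 with at least 50% of the shorter peak, 15 of the 20 inside their gene, 18 of the 21 with a false discovery rate under 0.01, and 12 of the 16 with a fold enrichment of at least 2. The shares of all peaks under these stricter peak settings were not computed. The cause of the shifts in this section was not tested. Depth is unknown, and 3 libraries a group and 1 peak list a condition limit every comparison.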

Other observations

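Several peaks lay within the span of a NEK gene and were assigned by the authors to another gene. At the 3' end of NEK8 (chromosome 17), peaks assigned to AC010761 had a fold enrichment of 8.04 in shWTAP and of 9.02 and 4.51 in control. Within the span of NEK4 (chromosome 3), a peak assigned to AC104446 had 17.4 in shWTAP and 20.3 in control. Within the span of NEK2 (chromosome 1), peaks assigned to the pseudogene FDPSP8 had 13.5 and 6.75 in shWTAP and 11.3 in control. Within the span of NEK6 (chromosome 9), a peak assigned to AL162724 had 7.72 in shWTAP, and the control list gave no peak to that gene there. FDPSP8 and AL162724 were at no more than 0.145 and 0.285 FPKM in any input library. Which transcript these peaks came from was not tested.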
